A study of Homo sapiens with 4 samples.

Results

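Day 4 of a stepwise differentiation toward blood was compared with day 0, the undifferentiated culture at its start. The cells were of H1, a human embryonic stem cell line that is long established, and were wild-type in every library. The day 0 library is of undifferentiated H1 cells. The day 4 cells had been in Custom mTeSR1 medium with 2 pairs of factors in turn. The first pair was activin A (40 ng/ml) and BMP4 (50 ng/ml), for days 0 to 2, and the second VEGF (40 ng/ml) and bFGF (50 ng/ml), for days 2 to 4. Libraries of day 2, at the end of the first step, and of day 3, after 1 day of the second, are given beside them as intermediate values. Total RNA of the cells was sequenced, and the labels name no sort of a cell type. Each day is 1 library, so no difference has a replicate check and no p-value is given. Expression is given in CPM, the deposited expected count of a gene per 1000000 expected counts of its library. Of 18710 genes listed in either library, and 19390 in any of the 4, those with at least 1 CPM at day 0 or at day 4 were compared, which were 15671. Just over that minimum, between 1 and 1.5 CPM in the higher library, 618 genes had log2 ratios from -1.32 to 1.31. Just under it, between 0.5 and 1 CPM, 1163 genes had log2 ratios from -0.99 to 0.99. These are ratios of CPM + 1, which limits their size at such low values, so the ends of both ranges are set by the bands.

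In the embryo, pluripotent cells enter the primitive streak and leave it as mesoderm or endoderm. Activin A acts through the same receptors as NODAL, and together with BMP4 it directs cultured pluripotent cells into streak-like and mesodermal states. VEGF signals through KDR to mesodermal precursors of vessels and blood. The first blood cells arise with, and in part from, endothelium, under transcription factors such as TAL1, LMO2, GATA2, FLI1 and RUNX1.

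The 4 libraries were of similar depth, with totals of 5.04 to 5.49 times 1000000 expected counts, so that 1 read was worth 0.182 to 0.198 CPM. The 10 most abundant genes held 3.75 to 4.55% of the counts of a library. Differences are given as the log2 ratio of CPM + 1, day 4 over day 0, and genes past 4-fold on that scale are counted, in place of a test. For a single gene the fold is the plain ratio of its CPM values, and the range in brackets is an exact 95% interval for counting error only. For a gene with 0 reads in a library, the fold is a lower bound against 3 counts in that library, which is 0.595 CPM at day 0 and 0.546 CPM at day 4.

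At day 4, 963 genes were higher by 4-fold or more (6.15% of the 15671) and 546 lower by as much (3.48%). Past 2-fold, 2448 genes were higher (15.6%) and 1941 lower (12.4%), and the other 11282 (72.0%) differed by less. The median log2 ratio over all genes was -0.0037, with quartiles of -0.53 and 0.57. Large differences were more often upward: 96 genes had a log2 ratio of at least 5 and 13 of at most -5. The 4-fold higher genes held 0.856% of all counts at day 0 and 10.3% at day 4, and the 4-fold lower genes 5.57% and 0.583%. In RefSeq's annotation 925 of the higher genes and 502 of the lower ones are protein-coding, and 27 and 24 are long noncoding RNAs. Reads at day 4 alone were found for 347 genes, and at day 0 alone for 183.

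**Figure D1:**
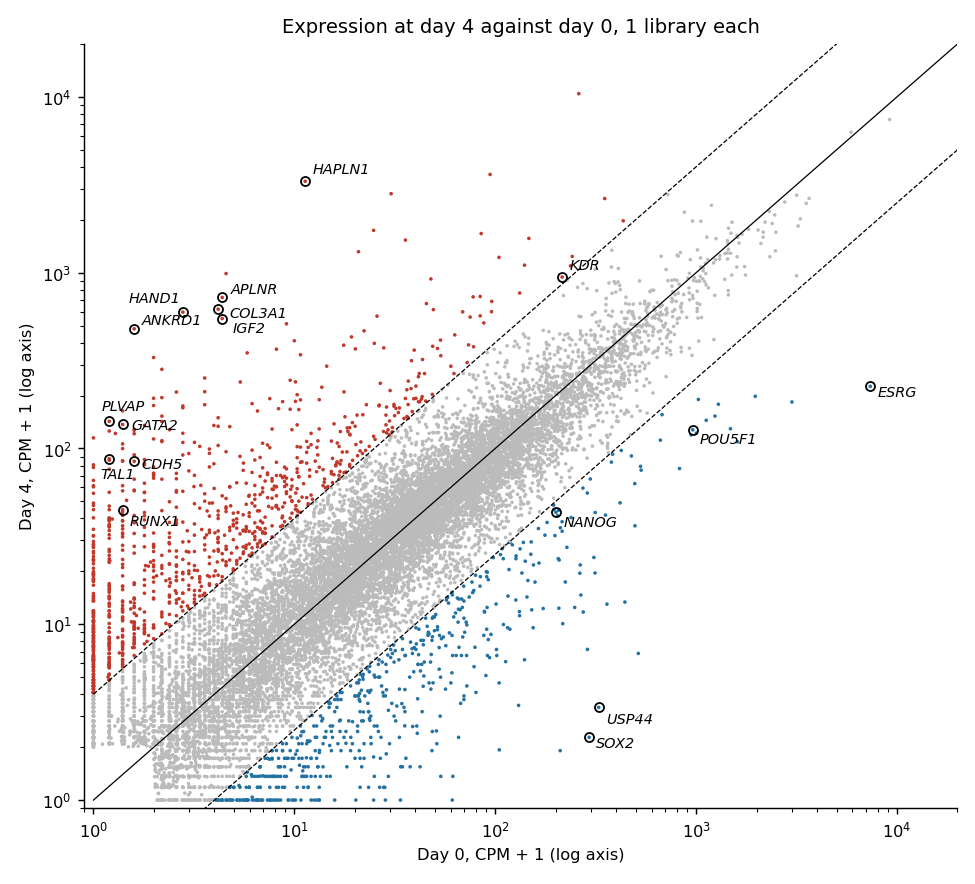
CPM + 1 of 15671 genes at day 0 (horizontal, log axis) and day 4 (vertical, log axis), 1 library each; the solid line marks equal values and the dashed lines 4-fold, with 963 higher genes in red and 546 lower genes in blue. HAPLN1 and ANKRD1 lie far above the upper line, and SOX2 and USP44 far below the lower one.

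Among the 15 largest upward differences were genes of the matrix, of mesoderm and of vessels. HAPLN1, a protein that links hyaluronan to proteoglycans, measured 10.3 CPM at day 0, 425 at day 2, 1792 at day 3 and 3309.5 at day 4, 321-fold higher (244 to 429.5). ANKRD1, a transcriptional cofactor of muscle and a target of YAP, measured 0.595, 320.4, 443 and 479 CPM on the same days, 804-fold higher (275 to 3899.8). It had 3 reads at day 0, so its fold is known only within a wide interval. HAND1, a transcription factor of lateral plate and extraembryonic mesoderm, measured 1.79, 284, 440.3 and 595 CPM, 333-fold higher (175 to 729). It was high by day 2 and higher in each later library. COL3A1, a fibrillar collagen of vessel walls, measured 3.18, 7.31, 66.5 and 619 CPM, 195-fold higher (119.9 to 342). IGF2, an imprinted growth factor, measured 3.37, 22.9, 270.0 and 547 CPM, 162-fold higher (101 to 279). Both of these were highest at day 4, and COL3A1 stood far above its day 3 value there. CST1, an inhibitor of cysteine proteases, followed with 3.57, 46, 575 and 988 CPM, 276-fold higher (175 to 467), although other cystatins can share its reads. The remaining genes of this group were APLNR, PMP22, TBX3, PLVAP, CRHBP, HOXB6, GASK1B, GATA2 and IFI16, which were 194- to 714-fold higher or, for HOXB6, at least 191-fold higher.

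Downward, the largest difference was in SOX2, a core transcription factor of pluripotent and neural progenitor cells, with 292 CPM at day 0, 0.770 at day 2, 0.769 at day 3 and 1.27 at day 4, 229-fold lower (111 to 572). USP44, a deubiquitinase, measured 327, 5.39, 4.23 and 2.37 CPM, 138-fold lower (80.5 to 259.7). PTPRZ1, a receptor-type phosphatase, measured 514, 17.7, 16.1 and 5.83 CPM, 88.3-fold lower (62.4 to 129). All 3 were already below 18 CPM at day 2. ESRG, a long noncoding RNA of human pluripotent cells, was lower in each later library, with 7359, 2866, 961 and 225 CPM, 32.8-fold lower (31 to 34.7). POLR3G, a subunit of RNA polymerase III that marks pluripotent cells, measured 441, 36.7, 12.7 and 12.4 CPM, 35.6-fold lower (28 to 46.1). The other 10 genes were TMEM132B, RYR1, ZDHHC22, LCK, UNC13A, RIMS4, VSNL1, TMEM151B, CAMKV and MIR124-1HG. UNC13A, RIMS4, VSNL1 and CAMKV are known from synapses and neurons, and RYR1 is a calcium release channel. RYR1 measured 60.1, 4.62, 1.35 and 0 CPM, at least 110.1-fold lower, and TMEM151B and MIR124-1HG likewise had 0 reads at day 4.

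The sequences before the start sites of 4 genes are shown, as examples of both directions of the comparison: PLVAP and TAL1 for genes of vessels and blood, SOX2 and NANOG for pluripotency. Each is the 250 bases before the start in RefSeq (GRCh38.p14), written 5′ to 3′ on the gene's strand. PLVAP lies on the minus strand at chr19:17377343-17377592, TAL1 on the minus strand with starts after chr1:47232336-47232585 and chr1:47231716-47231965, SOX2 on the plus strand at chr3:181711675-181711924, and NANOG on the plus strand at chr12:7789152-7789401. Capitals mark matches on either strand to 4 motifs. AGATAA is a core bound by GATA factors, and AGGAAG one bound by ETS factors. TATAAA is the TATA element of core promoters. ATGCAAAT is the octamer bound by POU factors such as OCT4.
PLVAP: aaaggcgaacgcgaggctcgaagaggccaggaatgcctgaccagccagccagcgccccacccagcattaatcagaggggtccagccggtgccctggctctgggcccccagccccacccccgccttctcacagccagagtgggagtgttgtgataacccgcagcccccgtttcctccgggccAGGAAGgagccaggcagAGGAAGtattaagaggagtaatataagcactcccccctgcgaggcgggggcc
TAL1, first start: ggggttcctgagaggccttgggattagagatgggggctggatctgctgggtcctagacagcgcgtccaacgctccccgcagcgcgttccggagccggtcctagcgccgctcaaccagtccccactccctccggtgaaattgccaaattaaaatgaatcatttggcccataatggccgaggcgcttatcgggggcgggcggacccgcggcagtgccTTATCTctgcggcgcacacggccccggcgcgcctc
TAL1, second start: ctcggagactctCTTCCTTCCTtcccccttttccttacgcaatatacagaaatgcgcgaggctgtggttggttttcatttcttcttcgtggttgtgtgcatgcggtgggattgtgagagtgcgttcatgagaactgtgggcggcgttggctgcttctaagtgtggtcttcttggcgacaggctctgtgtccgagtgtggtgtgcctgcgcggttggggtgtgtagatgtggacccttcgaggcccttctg
SOX2: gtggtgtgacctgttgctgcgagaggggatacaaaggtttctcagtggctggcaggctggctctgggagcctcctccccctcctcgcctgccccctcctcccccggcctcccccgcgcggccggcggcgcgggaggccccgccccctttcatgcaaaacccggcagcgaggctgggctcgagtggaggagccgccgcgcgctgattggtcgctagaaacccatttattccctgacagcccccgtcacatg
NANOG: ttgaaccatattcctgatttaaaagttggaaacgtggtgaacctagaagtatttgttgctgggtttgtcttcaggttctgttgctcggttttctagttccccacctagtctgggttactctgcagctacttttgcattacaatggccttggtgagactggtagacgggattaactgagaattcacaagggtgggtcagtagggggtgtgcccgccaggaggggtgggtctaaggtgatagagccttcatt
PLVAP holds 2 matches to AGGAAG on its own strand. The first TAL1 sequence holds 1 match to AGATAA, and the second 2 overlapping matches to AGGAAG, both read on the opposite strand. SOX2 and NANOG hold no exact match to any of the 4 motifs in these windows. Near matches were not counted, and they occur in genes of both directions. SOX2 holds ATGCAAAA and NANOG its reverse complement, TTTTGCAT, each 1 base off the octamer. RUNX1, higher at day 4, holds ATGCAAAC, also 1 base off it. PLVAP holds TGATAA and KLF1 its reverse complement, TTATCA, each 1 base off AGATAA. These 4 genes do not stand for a rule: LCK, 166-fold lower (45.6 to 1379), holds AGGAAG before both of its starts. GATA2, CD34, KDR, RUNX1 and KLF1, all higher at day 4, hold no exact match to the 4 motifs. GATA1 holds 1 match to AGGAAG, and DNMT3B and CRIPTO (TDGF1), both lower, hold no exact match. AGATAA was found in 5.79% of 17839 such windows of genes with at least 1 CPM, in 8.63% of 1135 windows of the 4-fold higher genes and in 5.68% of 616 windows of the 4-fold lower genes. For AGGAAG the shares were 28, 32.7 and 27.8%, for TATAAA 6.42, 10.5 and 8.77%, and for ATGCAAAT 1.33, 1.15 and 2.76%. Over all 35116 windows in the table they were 9.17% for AGATAA, 28.7% for AGGAAG, 10.7% for TATAAA and 1.63% for ATGCAAAT. A match is a run of letters, not a measured binding site, and genes with several starts count once for each.

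Gene lists are described below by how many members reached 1 CPM in either library, how many of these were at least 2-fold higher or lower, and their median log2 ratio, to be read against 15.6% higher, 12.4% lower and a median of -0.0037 over all genes. A member that reached 1 CPM at day 4 alone had to be higher there, and one that did so at day 0 alone had to be lower. For lists with many such members the counts describe the list and support nothing further. Where the number is not given below, at most 4 members of a list reached 1 CPM at day 4 alone and at most 3 at day 0 alone.

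**Figure D2:**
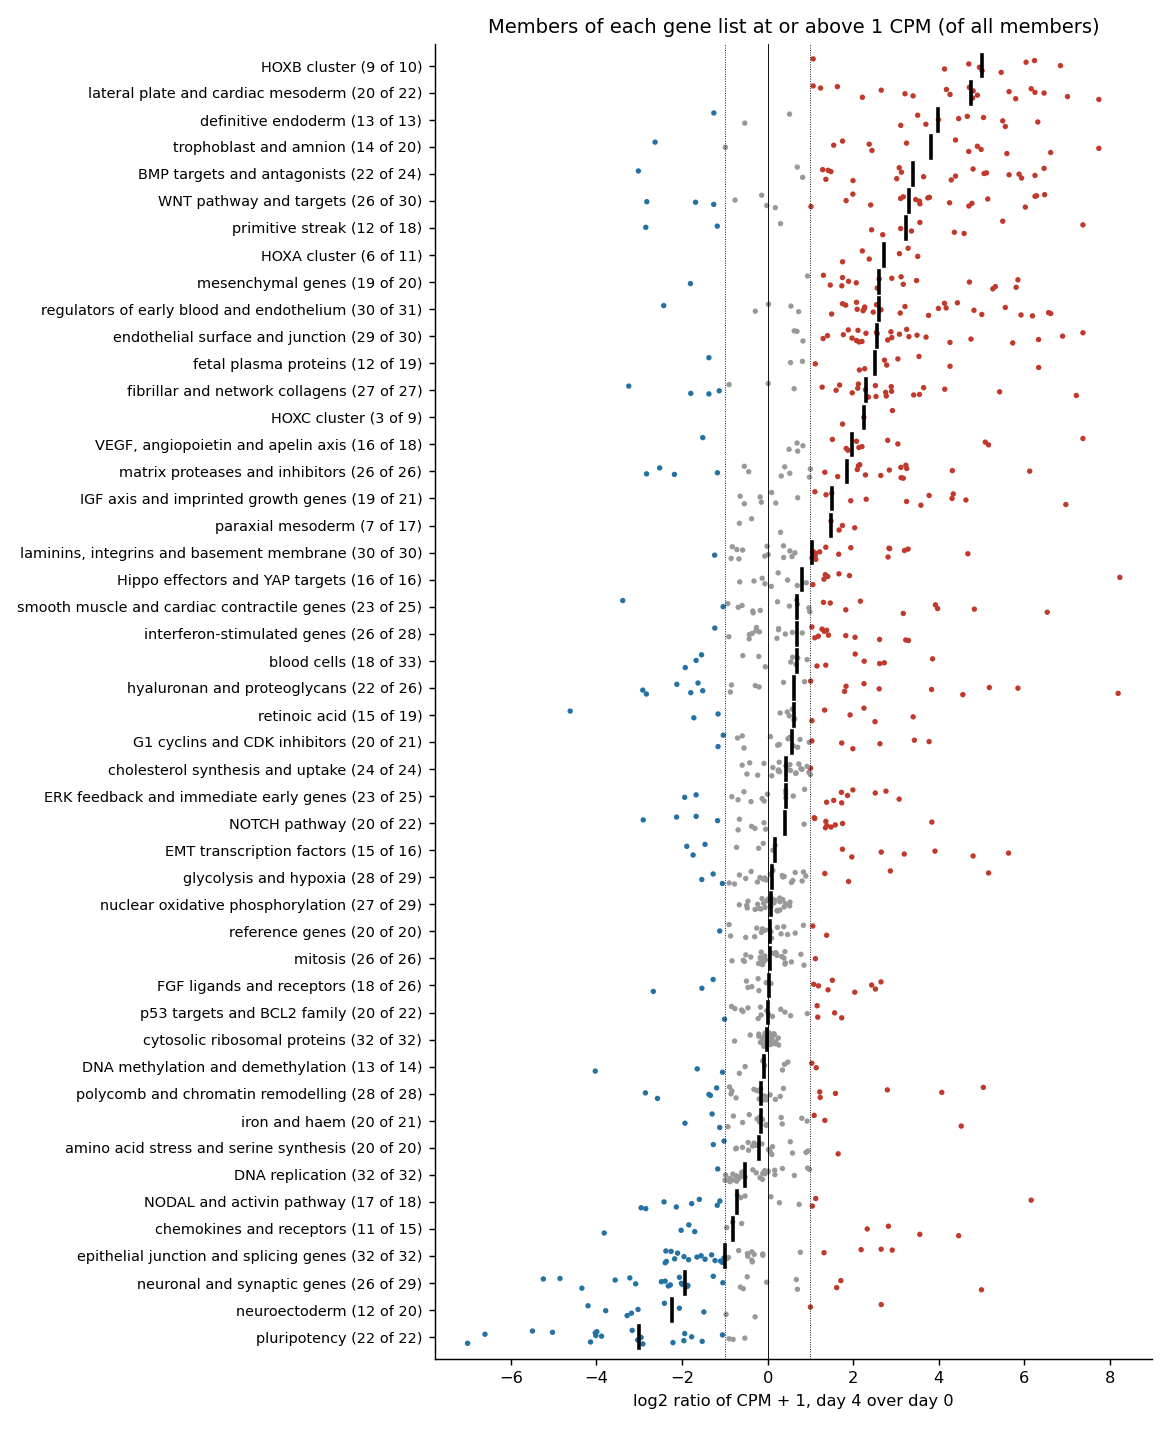
Log2 ratio of CPM + 1, day 4 over day 0 (horizontal), of each list member with at least 1 CPM in either library, by list (vertical, with members shown of all members); red points are at least 2-fold higher, blue at least 2-fold lower, and black bars are medians. Medians run from -3.0 for pluripotency to 5.01 for the HOXB cluster, and the lists of ribosomal proteins and oxidative phosphorylation lie within 2-fold of 0.

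Pluripotency genes were at lower levels at day 4, to very different extents. All 22 members of the pluripotency list were measured, 19 were at least 2-fold lower, 14 of them at least 4-fold, and the median log2 ratio was -3.0. POU5F1, the gene of OCT4, measured 962 CPM at day 0, 396 at day 2, 203 at day 3 and 127 at day 4, 7.59-fold lower (7.01 to 8.23). NANOG, a partner of OCT4 and SOX2, measured 199.6, 83.7, 95.8 and 42.3 CPM, 4.72-fold lower (4.09 to 5.48). Pseudogene copies of both can take or give reads, so these 2 values are less certain than their intervals. DNMT3B, the de novo DNA methyltransferase of pluripotent cells, measured 2999, 392.1, 271 and 183 CPM, 16.4-fold lower (15.4 to 17.5). L1TD1, an RNA-binding protein, measured 1607, 632, 232 and 108 CPM. LIN28A, which blocks the maturation of let-7 microRNAs, differed least of the 6 markers of pluripotent cells, with 2481, 1275, 1491 and 1329.9 CPM. Per length, POU5F1 stood at 697 FPKM at day 0 and 93.6 FPKM at day 4, SOX2 at 116 and 0.51 FPKM, and NANOG at 95.4 and 20.2 FPKM. POU5F1 therefore stayed above NANOG, and SOX2, which had been above NANOG, was the lowest of the 3 at day 4. In a library of the whole culture, fewer cells of a type and less RNA per cell cannot be told apart.

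Primitive streak genes were high in the middle of the course, and only some were still above day 0 at day 4. Of 18 list members 12 reached 1 CPM at day 0 or 4, 8 of them at day 4 alone. Among the 12, 9 were at least 2-fold higher and 2 lower, and the median was 3.24 (2.90 with genes at 0 reads set to their bound, 1.55 over all 18). TBXT, the brachyury gene, measured 0.198 CPM at day 0, 35.8 at day 2, 24 at day 3 and 6.74 at day 4. EOMES, another T-box factor of the streak, measured 0.595, 367, 167 and 37.5 CPM, and LHX1, a LIM homeobox factor, 0.595, 154, 156 and 31.9 CPM. MIXL1, a homeobox factor of the streak, measured 0.198, 56.4, 5.77 and 0.910 CPM and was below 1 CPM at both ends. All 4 were highest at day 2 or 3, a peak that the ratio of day 4 to day 0 does not show. EOMES was still 63-fold higher (21.2 to 308), TBXT 33.9-fold higher (5.72 to 1376) and MIXL1 4.59-fold higher (0.513 to 217), with an interval that includes 1.

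**Figure D3:**
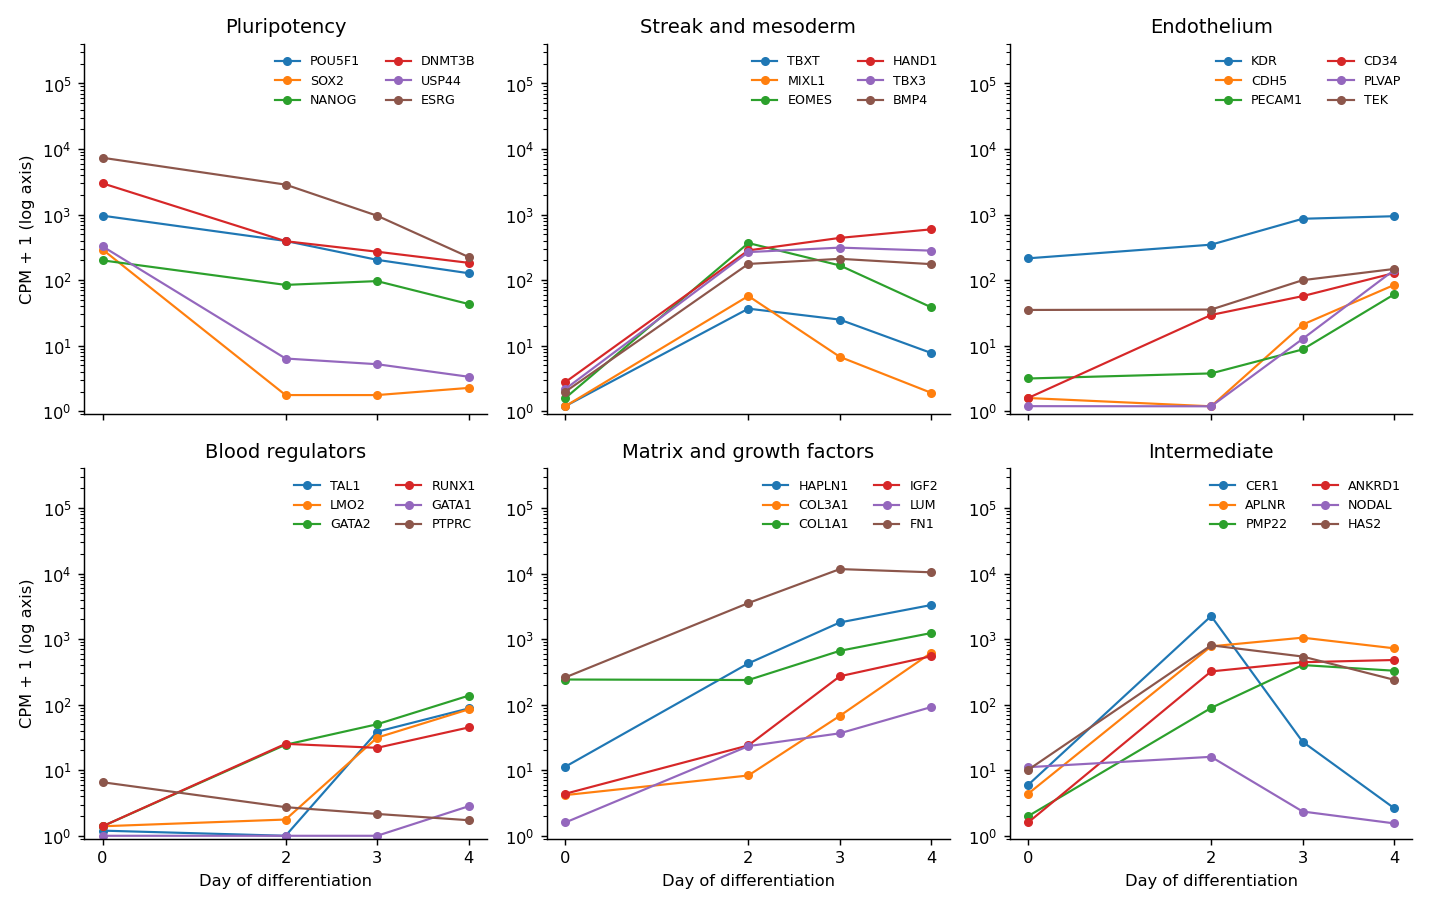
CPM + 1 (vertical, log axis) of 36 genes on days 0, 2, 3 and 4 (horizontal), 1 library a day, in 6 panels of 6 genes; lines join the libraries of a gene. SOX2 and USP44 are low from day 2 on, TBXT, MIXL1, EOMES and CER1 peak at day 2, and PLVAP, CDH5 and TAL1 are near 0 until day 2 and highest at day 4.

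Genes of lateral plate and cardiac mesoderm, most of them transcription factors, were higher in all members that reached 1 CPM. Of 22 members 20 reached 1 CPM, 13 of them at day 4 alone, all 20 were higher by 2-fold or more, 17 of them by 4-fold, and the median was 4.75 (4.49 over all 22). TBX3, a T-box factor of heart and limb, measured 1.19 CPM at day 0, 267 at day 2, 313 at day 3 and 281 at day 4, 236-fold higher (108 to 644). MSX1, a homeobox target of BMP signals, measured 0.397, 41.9, 129 and 105 CPM, 265-fold higher (73 to 2194). Both had reached at least 40 CPM by day 2. The paraxial mesoderm list, for the tissue that forms somites and skeletal muscle, was low: 7 of its 17 members reached 1 CPM, 5 at day 4 alone, 4 were at least 2-fold higher, and its median was 1.48 (0.00 over all 17). FOXC1 measured 0, 7.5, 9.61 and 3.10 CPM and PAX3 0, 0.385, 2.11 and 2.18 CPM, and none of the 4 higher members exceeded 3.46 CPM at day 4.

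Endoderm genes were present at day 4 as well. All 13 members of the definitive endoderm list reached 1 CPM, 8 of them at day 4 alone, 10 were at least 2-fold higher and 1 lower, and the median was 3.99. SOX17, a factor of endoderm that endothelium also uses, measured 0.198 CPM at day 0, 88.7 at day 2, 88.6 at day 3 and 55.3 at day 4, 279-fold higher (49.7 to 11048). GATA4, which cardiac mesoderm shares, measured 0.595, 107, 124 and 126 CPM. GATA4 was highest at day 4, SOX17 at days 2 and 3. Fetal plasma protein genes, those of yolk sac and liver, had 12 of 19 members at 1 CPM, 6 at day 4 alone, 9 at least 2-fold higher and a median of 2.5 (0.93 over all 19). APOA1 measured 0, 1.54, 15.8 and 79.7 CPM, at least 134-fold higher. FGB, of fibrinogen, measured 4.24, 3.77, 13.6 and 42.2 CPM, 9.96-fold higher (6.47 to 16.7). The summed CPM of the 5 endoderm markers SOX17, FOXA2, FOXA1, AFP and TTR were 4.76 at day 0 and 104.1 at day 4.

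Genes shared by trophoblast, amnion and extraembryonic mesoderm were higher too: 14 of 20 members reached 1 CPM, 7 at day 4 alone, 12 were at least 2-fold higher and 1 lower, and the median was 3.82 (2.06 over all 20). GATA3 measured 0.794, 96.4, 97.4 and 85.6 CPM, 108-fold higher (41.8 to 397), and CDX2, a homeobox factor of trophoblast and posterior mesoderm, 0, 4.81, 23.1 and 30.8 CPM, at least 51.7-fold higher. HAND1 and GATA2 are on this list and on others. The hormone gene CGA, a defining marker of trophoblast, had 0 reads at day 4, and the 5 markers of this class summed to 15.1 CPM at day 0 and 138.5 CPM at day 4. Whether cells of these types were present, and what they contributed to the values of shared genes, was not tested.

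Neural genes were divided. In the neuroectoderm list 12 of 20 members reached 1 CPM, 4 of them at day 0 alone and so fixed to be lower, and 1 at day 4 alone. Of the 12, 8 were at least 2-fold lower and 2 higher, with a median of -2.24 (-0.28 over all 20). POU3F1 measured 24, 2.5, 0.192 and 0.364 CPM, 66-fold lower (17.9 to 551), and ZIC2, a zinc finger factor of pluripotent and neural cells, 157, 129, 41.7 and 16.4 CPM, 9.57-fold lower (7.69 to 12). SOX1, the defining marker of neuroectoderm, had 0 reads in every library. Of the neuronal and synaptic list, 26 of 29 members reached 1 CPM, 5 of them at day 0 alone and 2 at day 4 alone, 17 were at least 2-fold lower and 3 higher, with a median of -1.94. VSNL1, a neuronal calcium sensor, measured 129.7, 3.54, 5.06 and 2.46 CPM, 52.8-fold lower (31.8 to 103), and SYT4, a synaptotagmin, 19.3, 77.7, 5.77 and 0 CPM, at least 35.3-fold lower. STMN2, a microtubule regulator of growing axons, stood apart from them at 0, 6.16, 35 and 30.9 CPM, at least 52-fold higher.

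Endothelial surface and junction genes were higher at day 4 in nearly the whole list, and CDH5, PECAM1 and PLVAP were first above 5 CPM at day 3, after the change to VEGF and bFGF. Of 30 members 29 reached 1 CPM, 12 of them at day 4 alone. Of the 29, 26 were at least 2-fold higher and 0 lower, and the median was 2.56 (2.41 with genes at 0 reads set to their bound). CDH5, VE-cadherin, the adhesion protein of endothelial junctions, measured 0.595 CPM at day 0, 0.192 at day 2, 20 at day 3 and 83.6 at day 4, 140.3-fold higher (47.7 to 683). PECAM1, another junction protein, measured 2.17, 2.78, 7.79 and 59.7 CPM, 27.6-fold higher (15.1 to 55.3). PLVAP, which forms the diaphragms of endothelial caveolae and fenestrae, measured 0.198, 0.192, 11.7 and 142 CPM, 714-fold higher (128 to 28219). These 3 differed little between days 0 and 2, with at most 3 CPM in both libraries, and were at 59.7 CPM or more at day 4. CD34, a sialomucin of endothelium and blood progenitors, was already at 28.5 CPM at day 2 and measured 0.595 and 127 CPM at days 0 and 4, 214-fold higher (72.9 to 1040.2). The 6 endothelial markers CDH5, PECAM1, KDR, TEK, TIE1 and CD34 together summed to 255.0, 414.3, 1050 and 1390 CPM on the 4 days.

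KDR was expressed from the start of the course. KDR, the main signalling receptor of VEGF, measured 214 CPM at day 0, 347 at day 2, 863 at day 3 and 944 at day 4, 4.40-fold higher (4.12 to 4.71). NRP1 and NRP2, the neuropilins that act as co-receptors, measured 3.18, 66.4, 141 and 149 CPM, 46.8-fold higher (28.6 to 82.2), and 37.3, 299, 406 and 315 CPM, 8.44-fold higher (7.26 to 9.86). TEK, the angiopoietin receptor, measured 34.1, 34.6, 99 and 147 CPM, and its ligand ANGPT2 2.98, 29.5, 113 and 134 CPM, 45.1-fold higher (27.1 to 80.9). APLNR, the apelin receptor of early mesoderm and of vessels, measured 3.37, 774, 1049 and 722 CPM, 214-fold higher (134 to 368), and was highest at day 3. KDR, TEK and NRP2 differed least of these 6 genes. In the whole list of this axis, 16 of 18 members reached 1 CPM, 11 were at least 2-fold higher and 1 lower, and the median was 1.98. Per length, the order at day 4 of the 10 vessel genes described so far was APLNR with 184 FPKM, KDR with 155, PLVAP with 61.2, NRP2 with 52.1, CD34 with 47.4, TEK with 30.4, ANGPT2 with 25.3, NRP1 with 25.03, CDH5 with 20.1 and PECAM1 with 8.66 FPKM. With 1 library the neighbours ANGPT2 and NRP1 cannot be ranked. At day 0 KDR stood at 35.1 FPKM, NRP2 at 7.17, TEK at 7.04 and the other 7 at 0.91 FPKM or less. FLT1, an angiogenic receptor described below with the lengths, is not among the 10. Its CPM exceeded those of KDR at days 0 and 4.

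Transcription factors of early blood and endothelium were higher, whereas most genes of mature blood cells stayed low. Of 31 regulators 30 reached 1 CPM, 17 of them at day 4 alone, 25 were at least 2-fold higher and 1, BCL11A, lower, and the median was 2.6 (2.51 with genes at 0 reads set to their bound). TAL1, a basic helix-loop-helix factor needed for all blood lineages, measured 0.198 CPM at day 0, 0 at day 2, 37.7 at day 3 and 86.5 at day 4, 436-fold higher (77.8 to 17243). LMO2, the adaptor that joins TAL1 to GATA factors, measured 0.397, 0.770, 30.4 and 83.7 CPM, 211-fold higher (58.1 to 1747). FLI1, an ETS factor of endothelium and megakaryocytes, measured 0.286, 4.76, 46.8 and 121 CPM, 423-fold higher (109 to 24089). TAL1 and LMO2 were below 1 CPM through day 2 and at 30 CPM or more from day 3. GATA2, of blood stem and progenitor cells, measured 0.397, 23.5, 49.2 and 136 CPM, 343-fold higher (94.5 to 2834), and RUNX1, needed for blood to emerge from endothelium, 0.397, 24.2, 20.9 and 43.9 CPM, 111-fold higher (30.3 to 918). Unlike TAL1 and LMO2, both exceeded 23 CPM at day 2. GATA1, the factor of red cells and megakaryocytes, had 0 reads through day 3 and 10 reads at day 4, 1.82 CPM, at least 3.06-fold higher. Per length LMO2 had 52.4 FPKM at day 4, GATA2 39.6, FLI1 30.2, TAL1 17.1 and RUNX1 6.27 FPKM.

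Of 33 blood cell genes 18 reached 1 CPM, 7 of them at day 4 alone, 7 were at least 2-fold higher and 3 lower, and the median was 0.68 (0.00 over all 33). PTPRC, the gene of CD45 that marks white blood cells, measured 5.56 CPM at day 0, 1.73 at day 2, 1.15 at day 3 and 0.728 at day 4, 7.63-fold lower (2.67 to 29.9), and so was lower at day 4 from a low start. Its deposited length was 1595 bases at day 0, with 28 reads, and 4946 bases at day 4, with 4 reads. The fold of PTPRC may therefore compare different transcripts. RHAG, the Rh-associated glycoprotein of red cells, measured 0, 1.73, 1.54 and 13.5 CPM, at least 22.6-fold higher. KLF1, the red cell factor, measured 0.198, 0.962, 0.961 and 4.73 CPM, 23.8-fold higher (3.92 to 978). HBZ had 0 reads in every library, and HBE1, embryonic globin, had 0.910 CPM at day 4 and 0 before. SPN, the gene of CD43, a sialoglycoprotein of white blood cells, stood at 20.8, 16.9, 19.8 and 20.0 CPM on the 4 days.

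Ligands, targets and antagonists of BMP signals were higher as a list: 22 of 24 members reached 1 CPM, 7 at day 4 alone, 19 were at least 2-fold higher and 1 lower, and the median was 3.39. BMP4, which was also added as protein in the first step, measured 0.992 CPM at day 0, 176 at day 2, 211 at day 3 and 175 at day 4, 176-fold higher (75.1 to 543). SMAD6, an inhibitory SMAD, measured 1.79, 145, 128 and 169 CPM, 94.9-fold higher (49.8 to 208), and BMPER, a secreted modulator of BMPs in endothelium, 2.58, 94.1, 170.5 and 209 CPM, 81.1-fold higher (47.3 to 153). All 3 were at 94.1 CPM or more at day 2, and none was lower at day 4 than 169 CPM. The factors named for the second step are VEGF and bFGF, and whether BMP4 protein was still present at day 4 was not tested. The NODAL and activin list had a median of -0.71 over 17 of 18 members, with 3 at least 2-fold higher and 8 lower. CRIPTO (TDGF1), the NODAL co-receptor, measured 1122, 732, 255 and 144 CPM, 7.81-fold lower (7.25 to 8.43), and NODAL 10.1, 15, 1.35 and 0.546 CPM, 18.5-fold lower (6.0 to 92.9).

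WNT pathway genes had 26 of 30 members at 1 CPM, 10 of them at day 4 alone, 19 at least 2-fold higher and 3 lower, and the median was 3.32 (2.95 with the bound). WLS, which carries WNT proteins to the cell surface, measured 1.19 CPM at day 0, 347 at day 2, 267 at day 3 and 194 at day 4, 163-fold higher (74.5 to 444). RSPO3 and RSPO2, secreted enhancers of WNT signals, measured 0, 7.31, 28.1 and 77 CPM, at least 129-fold higher, and 0.595, 1.73, 60 and 120.3 CPM, 202-fold higher (68.8 to 982). LEF1, a transcription factor and target of the pathway, measured 1.19, 54.1, 124 and 141 CPM, 119-fold higher (54.3 to 325). WLS peaked at day 2, whereas RSPO3, RSPO2 and LEF1 were highest at day 4. The secreted WNT antagonists SFRP1 and SFRP2, which were picked after their values were seen, were among the 3 lower members, at 525 and 163 CPM and 532 and 74.3 CPM at days 0 and 4, and NKD2 was the third.

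The FGF and ERK lists were mixed. Of 26 FGF ligands and receptors 18 reached 1 CPM, 5 of them at day 4 alone, 8 were at least 2-fold higher and 3 lower, and the median was 0.02. FGF2, the gene of the bFGF that was added as protein, measured 214 CPM at day 0, 70.8 at day 2, 49.1 at day 3 and 32.8 at day 4, 6.53-fold lower (5.58 to 7.70), whereas the receptor FGFR3 measured 8.73, 49.6, 57.3 and 60.1 CPM, 6.88-fold higher (5.01 to 9.65). In the list of ERK feedback and immediate early genes, 23 members were measured, of which 9 were higher by 2-fold or more and 2 lower (median 0.43). DUSP4, a phosphatase that inactivates ERK, measured 6.75, 27.3, 55.2 and 64.3 CPM, 9.52-fold higher (6.69 to 14), and JUN 9.33, 30, 40.7 and 58.1 CPM, 6.22-fold higher (4.57 to 8.65). The NOTCH list had 9 higher and 4 lower of 20 measured (median 0.40). HEY1, a NOTCH effector of endothelium, measured 0.992, 5.0, 16.5 and 27.5 CPM, 27.7-fold higher (11.6 to 86.5), and NRARP, a feedback inhibitor of NOTCH, 36.5, 5.19, 4.42 and 4.0 CPM, 9.12-fold lower (5.84 to 14.9). The retinoic acid list had 6 higher and 3 lower of 15 (median 0.62). CRABP1, a retinoic acid binding protein, measured 50.2, 13.1, 1.73 and 1.09 CPM, 46-fold lower (20.8 to 126), and CYP26A1, the enzyme that degrades retinoic acid, 3.18, 202, 114 and 43.1 CPM, 13.6-fold higher (8.19 to 24.2).

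Growth factor genes of the IGF axis had 19 measured members, of which 12 were higher by 2-fold or more and 0 lower, and the median was 1.5. Beside IGF2, the binding proteins IGFBP5 and IGFBP7 measured 2.78, 10.8, 46.7 and 92.8 CPM, 33.4-fold higher (19.7 to 61.5), and 0.794, 9.62, 19.8 and 34.6 CPM, 43.6-fold higher (16.7 to 162). PLAGL1, an imprinted transcription factor, measured 1.19, 3.85, 41.8 and 43.3 CPM, 36.4-fold higher (16.5 to 100.1). All of these were highest at day 4. Of 16 Hippo effectors and YAP targets 7 were at least 2-fold higher and 0 lower (median 0.80), and ANKRD1 had the largest difference of the list by far, followed by AMOTL2 with 48, 360.2, 295 and 184 CPM, 3.82-fold higher (3.32 to 4.42).

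HOX genes, which give cells a position along the body axis, were close to 0 at day 0 and differed by cluster at day 4. In the HOXB cluster 9 of 10 genes reached 1 CPM, in HOXA 6 of 11, in HOXC 3 of 9 and in HOXD 0 of 9, and every one of these 18 genes reached it at day 4 alone. HOXB9 measured 0.794 CPM at day 0, 26 at day 2, 83 at day 3 and 134 at day 4, 169-fold higher (65.8 to 623). HOXB6 measured 0, 41.9, 93.7 and 114 CPM and HOXB8 0, 6.16, 39.6 and 64.8 CPM, both from 0 reads at day 0. HOXB2, at the other end of the cluster, measured 0.397, 17.9, 56.1 and 60.4 CPM, 152-fold higher (41.8 to 1262). These genes had reads at day 2 and were higher in each later library. Summed over the genes that reached 1 CPM, HOXB stood at 1.59, 113.1, 357.9 and 489.9 CPM on the 4 days, and HOXA at 0, 21.4, 32.1 and 36.8 CPM. HOXA9 measured 0, 1.92, 5.17 and 10.4 CPM and HOXA13 0, 3.08, 7.88 and 8.74 CPM. HOXC genes appeared later: HOXC8 measured 0, 0, 0.192 and 6.55 CPM, at least 11-fold higher, and HOXC6 0.397, 0, 0.769 and 5.64 CPM, 14.2-fold higher (3.62 to 123). HOXD genes were below 1 CPM at days 0 and 4 but not throughout: HOXD13 measured 0, 0.577, 2.69 and 0.728 CPM on the 4 days, and HOXD9 0, 0, 1.15 and 0.910 CPM.

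**Figure D4:**
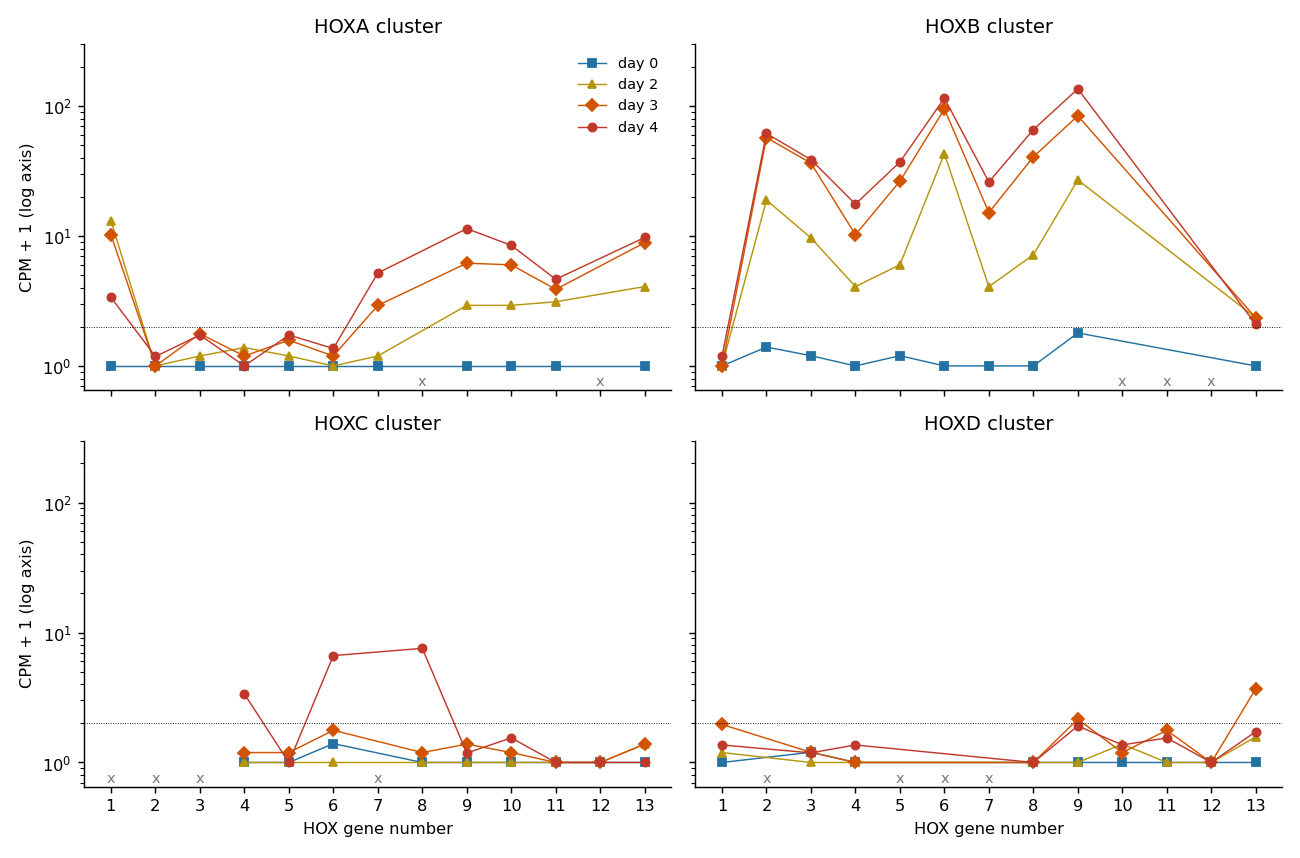
CPM + 1 (vertical, log axis) of the HOX genes by their number (horizontal) in each cluster on days 0, 2, 3 and 4, 1 library a day; a cross marks a number without a gene in the cluster and the dotted line 1 CPM. HOXB2 to HOXB9 lie between 16.6 and 134.3 CPM at day 4, the HOXA genes at 10.4 CPM or less, and the HOXD genes below 1 CPM.

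Most mesenchymal genes were higher, whereas the epithelial genes were divided. Of 20 mesenchymal genes 19 reached 1 CPM, 17 were at least 2-fold higher and 1 lower, and the median was 2.61. FN1, fibronectin, measured 259.6 CPM at day 0, 3543 at day 2, 11680.0 at day 3 and 10429 at day 4, 40.2-fold higher (38 to 42.5). VIM, vimentin, measured 93.3, 1116, 2448 and 3619.5 CPM, 38.8-fold higher (35.4 to 42.6), and CDH11, a mesenchymal cadherin, 8.14, 134, 562 and 511 CPM, 62.8-fold higher (46.2 to 87.7). FN1 had the most counts of any gene in the day 4 library. Among transcription factors of the epithelial to mesenchymal transition, 7 of 15 measured were at least 2-fold higher and 3 lower (median 0.18). ZEB2, a repressor of CDH1, measured 2.58, 78.9, 161 and 176 CPM, 68.4-fold higher (39.8 to 129), and SNAI2 3.77, 39.1, 106 and 132 CPM, 35-fold higher (22.3 to 58.5). All 32 epithelial junction and splicing genes were measured, 16 were at least 2-fold lower, 12 differed by less and 4 were higher, and the median was -0.985. The summed CPM of these 32 genes were 4320 at day 0 and 6858 at day 4, with the keratins among them. CDH1, E-cadherin, measured 475, 294, 165 and 89.7 CPM, 5.30-fold lower (4.81 to 5.85), and was lower in each later library. The keratins KRT8 and KRT19 went against the list at 349.9, 1573, 1992 and 2641 CPM, 7.55-fold higher (7.18 to 7.93), and 52.6, 199, 263 and 336 CPM, 6.39-fold higher (5.62 to 7.30). KRT8 has many pseudogenes that can share its reads.

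Collagen genes were higher as a list. All 27 collagen genes were measured, 20 were at least 2-fold higher and 4 lower, the median was 2.29, and their summed CPM went from 1472 to 10420 between days 0 and 4. COL5A1, a regulator of collagen fibril assembly, measured 34.7 CPM at day 0, 884 at day 2, 1487 at day 3 and 1532 at day 4, 44.1-fold higher (38 to 51.5). COL11A1, a minor fibrillar collagen, measured 48.2, 447, 556 and 615 CPM, 12.8-fold higher (11.2 to 14.6), and COL6A3, of microfibrils, 9.73, 13.3, 39.4 and 188 CPM, 19.3-fold higher (14.5 to 26.3). COL5A1 was near its day 4 level at day 3, whereas COL6A3, like COL3A1, was highest at day 4 by a wide margin. Of 30 laminin, integrin and basement membrane genes 16 were at least 2-fold higher and 1 lower (median 1.04). NID2, a nidogen that joins laminin to collagen, measured 8.53, 6.73, 125 and 243 CPM, 28.5-fold higher (21.1 to 39.6), and ITGA5, the fibronectin receptor subunit, 38.5, 356, 441 and 362 CPM, 9.39-fold higher (8.10 to 10.9).

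Among 26 matrix proteases and inhibitors 15 were at least 2-fold higher and 4 lower, and the median was 1.87. ADAMTS9, a protease of proteoglycans, measured 1.19 CPM at day 0, 38.3 at day 2, 217 at day 3 and 152 at day 4, 127-fold higher (58.3 to 348), and the protease inhibitor SERPINE2 76.6, 2205, 1158 and 728 CPM, 9.5-fold higher (8.55 to 10.6). ADAMTS9 peaked at day 3 and SERPINE2 at day 2. Of the hyaluronan and proteoglycan list, 22 of 26 members reached 1 CPM, 10 were at least 2-fold higher and 6 lower (median 0.62). The hyaluronan synthases differed in opposite directions: HAS2 measured 9.13, 802, 541 and 238 CPM, 26.1-fold higher (19.5 to 35.8), and HAS3 154, 24.1, 26.3 and 20.8 CPM, 7.42-fold lower (6.09 to 9.12). LUM, lumican, a small proteoglycan that binds collagen, measured 0.595, 22.3, 35.6 and 91 CPM, 153-fold higher (52 to 744), and FMOD, fibromodulin, 0.992, 11, 51.1 and 71.4 CPM, 71.9-fold higher (30.6 to 223). The 6 markers of mesenchymal or smooth muscle cells, PDGFRA, PDGFRB, COL1A1, COL3A1, ACTA2 and LUM, summed to 270.1 CPM at day 0 and 2166 CPM at day 4.

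Contractile genes were mixed, with 9 of 23 members higher by 2-fold or more and 2 lower (median 0.70). Of the 23, 5 reached 1 CPM at day 4 alone, MYL4 among them. ACTC1, cardiac actin, measured 29.3 CPM at day 0, 596 at day 2, 1522 at day 3 and 2812 at day 4, 95.9-fold higher (81.4 to 113), and MYL4, the embryonic and atrial myosin light chain, 0.198, 9.24, 20.9 and 33.1 CPM, 167-fold higher (29.6 to 6629). Actin genes are alike in sequence, so ACTC1 is less certain than its interval. The 4 cardiac markers NKX2-5, TNNT2, MYH6 and MYL7 summed to 12.5 CPM at day 0 and 45.8 CPM at day 4, whereas TNNT2, the defining troponin, measured 11.9, 8.27, 5.38 and 5.28 CPM.

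Genes of DNA replication and mitosis differed little. All 32 DNA replication genes were measured, 31 differed by less than 2-fold, and the median was -0.53. MCM5, a subunit of the replicative helicase, measured 240.2 CPM at day 0, 111 at day 2, 97.1 at day 3 and 120.0 at day 4, 2.0-fold lower (1.82 to 2.20), and TYMS, thymidylate synthase, 86.5, 119, 122 and 171 CPM, 1.98-fold higher (1.77 to 2.22). Of 26 mitosis genes 25 differed by less than 2-fold and CENPA, the centromeric histone, was higher at 7.94, 23.1, 17.7 and 18.4 CPM, with a median of 0.05. G1 regulators differed more, with 6 of 20 measured at least 2-fold higher and 2 lower (median 0.56). CDK6 measured 40.5, 182, 320.0 and 255 CPM, 6.30-fold higher (5.43 to 7.33), CCND1, cyclin D1, 227, 275, 556 and 906 CPM, 3.99-fold higher (3.74 to 4.26), and the inhibitor CDKN1C 1.79, 6.93, 19.8 and 37.1 CPM, 20.8-fold higher (10.7 to 46.1). Among p53 targets and BCL2 family genes 4 of 20 were at least 2-fold higher and 1 lower (median 0.00), and CDKN1A, the p21 inhibitor, measured 37.1, 89.5, 104 and 126 CPM, 3.38-fold higher (2.88 to 4.0).

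Chromatin genes differed in single members. In the DNA methylation list, 2 of 13 measured were at least 2-fold higher and 3 lower (median -0.10), and the lower ones were DNMT3B, DNMT3A and TET1. TET1, which oxidises methylcytosine, measured 213 CPM at day 0, 196 at day 2, 159.7 at day 3 and 67.4 at day 4, 3.16-fold lower (2.80 to 3.56), and TET2 8.73, 29.8, 34.6 and 20.4 CPM, 2.33-fold higher (1.63 to 3.39), so the 2 enzymes differed in opposite directions. Of 28 polycomb and remodelling genes 6 were at least 2-fold higher and 5 lower (median -0.15). KDM6B, a demethylase of histone H3 lysine residues, measured 1.79, 56.8, 126 and 90.8 CPM, 50.9-fold higher (26.6 to 112). The polycomb paralogs PHC1 and PHC2 measured 1290.2, 220.1, 202 and 177 CPM, 7.27-fold lower (6.79 to 7.78), and 4.37, 26, 65 and 89.2 CPM, 20.4-fold higher (13.3 to 32.9).

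Metabolic and housekeeping lists lay near 0. No member of 32 cytosolic ribosomal protein genes (median -0.02) or of 27 measured genes of oxidative phosphorylation (median 0.08) differed by 2-fold. Of 24 cholesterol genes 1, NSDHL, was 2-fold higher, and the median was 0.44. Of 28 glycolysis and hypoxia genes 4 were at least 2-fold higher and 3 lower (median 0.09). SLC16A3, the lactate exporter, measured 0.992 CPM at day 0, 24.4 at day 2, 35.9 at day 3 and 70.4 at day 4, 71-fold higher (30.2 to 219.9), and PFKP, a phosphofructokinase, 97.9, 107, 219 and 366 CPM, 3.74-fold higher (3.39 to 4.14). In the amino acid stress list 1 of 20 was higher and 2 lower (median -0.20), and in the list of iron and haem 3 of 20 were higher and 3 lower (median -0.15). SLC40A1, ferroportin, the iron exporter, measured 0, 7.31, 13.3 and 22 CPM, at least 37-fold higher, and HMOX1, haem oxygenase, 66.7, 12.1, 15.6 and 16.7 CPM, 3.98-fold lower (3.15 to 5.07). Of 20 common reference genes 2 were at least 2-fold higher, B2M and VPS29, and 1 was lower, TFRC, with a median of 0.06.

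Of 28 interferon-stimulated genes 26 reached 1 CPM, 6 of them at day 4 alone, 12 were at least 2-fold higher and 1 lower, and the median was 0.69 (0.55 with the bound). IFIT1 measured 3.82 CPM at day 0, 2.77 at day 2, 4.5 at day 3 and 46.2 at day 4, 12.1-fold higher (7.69 to 20.7), IFIT3 2.30, 1.01, 4.48 and 19.2 CPM, 8.37-fold higher (4.45 to 16.2), and ISG15, a ubiquitin-like modifier, 5.16, 5.19, 3.08 and 24.4 CPM, 4.73-fold higher (3.09 to 7.5). All 3 were at 5.19 CPM or less through day 3 and highest at day 4. Of the chemokine list 11 of 15 reached 1 CPM, with 4 at least 2-fold higher and 4 lower (median -0.82). The ligand CXCL12 measured 100.4, 21.7, 6.34 and 6.19 CPM, 16.2-fold lower (11.5 to 23.7), whereas its receptors CXCR4 and ACKR3 measured 2.18, 38.5, 88.8 and 69.4 CPM, 31.8-fold higher (17.6 to 64.2), and 0.198, 20.4, 12.7 and 13.1 CPM, 66-fold higher (11.5 to 2644). The ligand was thus lower and its receptors higher at day 4.

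The deposited length of a gene gave a second readout. It behaves as an average over the transcripts listed for the gene: in the 4851 genes with 1 transcript and at least 50 expected counts in both libraries it was the same at both days, and it varied only where several are listed. In the 4419 genes with several transcripts and that depth, 4245 (96.1%) had lengths within 10% of each other, 1636 were longer at day 4, 2172 shorter and 611 equal. At 1.5-fold, 3 genes were longer (0.0679%) and 4 shorter (0.0905%). DMD, dystrophin, which has short and long isoforms, went from 5139 to 11885 bases, while its expression was 4.35-fold higher (3.23 to 5.95). VPS50, of endosome recycling, went from 2621 to 5688 bases, and NLGN4Y, a neuroligin that can share reads with NLGN4X, from 2439.8 to 5002 bases, with CPM that differed by less than 2-fold in both. The shorter genes were HAS3, from 3135 to 1632 bases; SYNE2, a nuclear envelope protein, from 13554 to 7395 bases; TRIOBP, an actin-binding protein, from 9144 to 5004 bases; and NBEA, neurobeachin, from 11140.0 to 7059 bases. TRIOBP kept its level, at 101, 105, 136 and 101 CPM, whereas the other 3 were 2.31- to 7.42-fold lower. The files give no error for the length, and it rests on reads that fit more than 1 isoform.

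**Figure D5:**
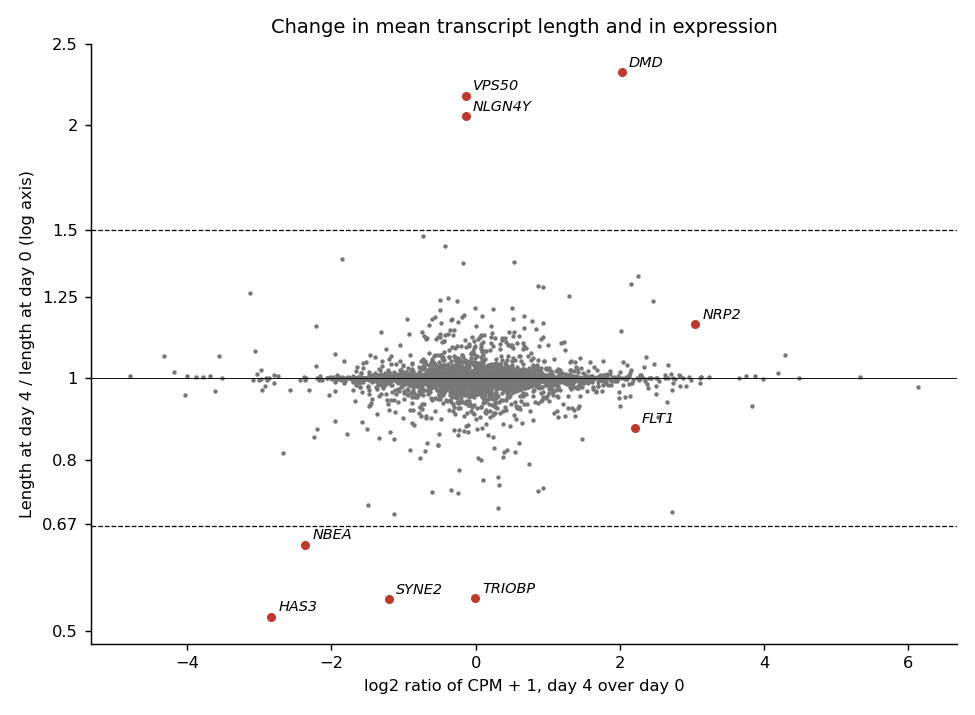
Deposited length at day 4 over that at day 0 (vertical, log axis) against the log2 ratio of CPM + 1 (horizontal) of 4419 genes with several transcripts and at least 50 expected counts in both libraries, 1 library each; dashed lines mark 1.5-fold. Most points lie within 10% of equal length, with 3 genes above the upper dashed line and 4 below the lower one.

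Lengths differed more often in genes whose expression differed, with no test of this and no matching of read depth between the classes. Outside 10% lay 9 of 82 genes at least 4-fold higher (11%), 7 of 49 at least 4-fold lower (14.3%) and 137 of 3730 that differed by less than 2-fold (3.67%). Among angiogenic receptors, which were picked after their values were seen, FLT1 went from 5657 to 4934 bases with 236 and 1092 CPM at days 0 and 4, and NRP2 from 5166 to 5988 bases. PCDHGC3 and PCDHGB7, of a protocadherin cluster whose transcripts share their last exons, were among the 10 largest ratios in each direction, with 4726 to 3280.2 bases and 3495 to 4628 bases, and their reads cannot be assigned with certainty. Across quartiles of length, from genes of at most 1939 bases to those of at least 4518, the share at least 4-fold higher was 5.08, 6.17, 6.24 and 7.10%, the share lower 2.24, 3.32, 3.53 and 4.85%, and the median log2 ratio 0.09, 0.03, -0.04 and -0.13. Long genes thus held more differences in both directions in these libraries. CPM are not corrected for length and the quartiles were not matched for CPM, so a part of expression level in this was not tested.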

How the data were processed

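Trizol extraction and the TruSeq RNA kit of Illumina are given per the labels' protocols. BWA, Bowtie, RSEM and the build hg19 stand in the submitters' processing notes, without versions or roles. Each library has a deposited table with, per the file headers, an expected count, an FPKM value and a length for each gene, which the authors estimated. Genes without reads are not listed and were set to 0. In each library 69.4 to 70.1% of the listed genes had an expected count that was exactly whole as deposited, with no tolerance.

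CPM were computed from the expected counts. Log2 ratios used CPM + 1, with a minimum of 1 CPM in either library. Counting intervals used counts rounded to whole numbers, and cover counting error only. Gene names came from RefSeq for 19273 of 19390 identifiers (table of GRCh38.p14), and no coordinates were taken from it apart from those of the promoter sequences. Models that read through 2 neighbouring genes share reads with them (102 genes, 14 of the genes past 4-fold).

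The genes described were the 15 largest log2 ratios in each direction among genes at 10 CPM or more on either day, the 4 largest ratios at most from each of 49 lists, the 10 largest length ratios in each direction with at least 50 expected counts in both libraries, 14 fixed genes and the cell type markers. The members and lists were chosen with earlier results of these data known. Some genes that this rule names are not reported here. With 1 library a day no test was made. The rules of size and the intervals were run on simulated counts with counting error alone, with changes only in genes at 10 CPM or more. These counts hold no variation between cultures, so they cannot show how far cultures of the same day differ. Alternatives were other pseudocounts, minimums, scalings (TMM of edgeR 4.0.16 in R 4.3.3, median-of-ratios size factors), the deposited FPKM, rounded counts and protein-coding genes alone. Scripts ran in Python 3.11.15 with scipy 1.17.1, pandas 2.3.3 and numpy 2.4.6, and figures were drawn with matplotlib 3.10.9.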

Additional observations from a re-analysis of the deposited data

Results flagged for a closer look

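The libraries of days 2 and 3 hold a signal that the comparison of day 4 with day 0 does not use: 72 genes were at least 4-fold above both day 0 and day 4 in one of them, on the log2 scale of CPM + 1. They were singled out after their values were seen. CER1, the cerberus gene, whose secreted product blocks NODAL and BMP ligands, measured 4.96, 2243, 26.1 and 1.64 CPM on days 0, 2, 3 and 4. ATP12A, a proton and potassium pump, measured 1.59, 179, 21.1 and 3.46 CPM, and GRP, the gastrin-releasing peptide, 0.397, 77.5, 3.27 and 1.27 CPM. GSC, goosecoid, a homeobox factor of the streak, measured 0, 22.7, 0.577 and 0.182 CPM. All 4 were highest at day 2, at the end of the activin A and BMP4 step, and were within a few CPM of 0 at both ends.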

How the results depend on the processing

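With 1 library a day, the difference between the cultures themselves, their batch and the day cannot be told apart, and folds of genes with 1 to 3 reads at day 0 have wide intervals. The 225 genes chosen by size, list, length or as fixed genes were checked at 4-fold, against the other pseudocounts, scalings, FPKM and rounded counts. In all of these, 182 stayed on their side of 4-fold. Of 48 list medians 40 stayed on their side of 2-fold in every alternative, and HOXD gave no value. Scaling moved the median of all genes by under 0.1 (log2). With a pseudocount of 0.1, 1463 genes were higher by 4-fold or more and 955 lower. With a pseudocount of 5 these counts were 493 and 232, and those past 2-fold 1526 and 1115. List medians that crossed a threshold were, with a pseudocount of 0.1, blood cells 1.09, NODAL -1.14, epithelial genes -1.05 and chemokines -1.17; with 5, paraxial mesoderm 0.52, HOXC 0.98 and laminins 0.59. With a minimum of 5 CPM they were paraxial mesoderm -0.66, which turned its direction with 1 member left, NODAL -1.12 and EMT factors 2.66. Without a minimum paraxial mesoderm was 0.27, and on deposited FPKM 0.23, with NODAL -1.08 and laminins 0.96. For lengths, at least 200 counts left 1 longer and 2 shorter genes, and a 2-fold threshold 0 shorter ones; these alternatives test fewer genes or ask for more. No paired analysis was possible because each day has 1 library. Depth limits genes near 1 CPM, which is about 5 reads.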

Other observations

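The opposite course, a dip, was seen in 11 genes, singled out after their values were seen. They had at least 10 CPM at both day 0 and day 4, and were at least 4-fold below both at day 2 or 3. The minimum differs from that of the 72 genes with a peak, so the counts cannot be compared. FGF19, a secreted FGF, measured 22.4, 3.46, 20.4 and 48.4 CPM on days 0, 2, 3 and 4, and TM4SF18, a membrane protein of the tetraspanin-like TM4 family, 12.3, 1.73, 13.7 and 37.3 CPM. Both were lowest at day 2 and above their day 0 level at day 4. Read-through models are among the 11, such as SLX1A-SULT1A3 with 12.5, 0, 14.2 and 19.2 CPM, and share their reads with other genes.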
